A study of Acropora tenuis with 242 samples.

Results

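The 100 gene models described here were those whose level fell in coral larvae between the start and the end of an experiment at control temperature, and which stood higher at that end in heated larvae. They were chosen from the measured values of the larval libraries, out of 25142 gene models in the larval table, of which 9449 had a mean of at least 10 CPM, the count scaled to the same total in every library. A model qualified when its log2(CPM + 1) level, averaged over crosses, was at least 0.5 lower at Ambient than at Pre and at least 0.5 higher at Hot than at Ambient. Of the models that met this condition, the 100 with the largest value of the smaller of these 2 steps are the members. Because the rule used Pre, Ambient and Hot larval libraries, the size of both steps is a description of the choice, with no test.

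RNA of Acropora tenuis, a reef-building coral, was measured by tag-based sequencing, which counts a short stretch of each transcript. The animals were crosses within and between 5 Great Barrier Reef populations labelled BK, CU, DR, LS and SB, and each cross is written as the labels write it, so that LSxCU is a cross between populations and LSxLS a cross within 1. Larvae were sampled as pools before the exposure (Pre, 33 libraries) and after it at the control (Ambient, 33 libraries) or the raised temperature (Hot, 30 libraries), with 3 libraries for each of 11 crosses and no Hot sample of LSxSB. Larvae of 10 crosses, 8 of which are among those in the larval set, were also settled and raised as juveniles at Ambient or Hot, each under 1 of 4 treatments of symbiont uptake (C1, D1, SED or SS in the labels). The Ambient juvenile libraries numbered 29, 32, 28 and 30 in that order, and the Hot ones 0, 6, 15 and 6. The labels give larvae no symbiont treatment. The temperatures, the duration and age at sampling, and the meaning of the 4 symbiont codes, are not given in the labels. Nothing assigns the libraries of a group to separate cultures, and the spread behind each p-value is therefore that among these libraries or crosses alone, which may be technical in part.

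Coral larvae are free-swimming planulae that live on maternal reserves until they settle, attach and metamorphose into a polyp. In Acropora the larvae and young polyps usually start without algal symbionts and take them up from their surroundings. Development changes the transcriptome of a planula from day to day, and raised temperature changes the expression of many coral genes, so a level after heating can be set against the level before exposure as well as against the unheated larvae of the same time. The files give each gene model an identifier and no gene name, so what the proteins do is not described. The RNA came from bulk tissue, in which fewer cells of a type cannot be told apart from less RNA per cell.

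Larval libraries held 79712 to 1102351 counts (median 871516) and juvenile ones 158481 to 962906. The shallowest larval library, LSxCU Pre replicate 2, was the only one under 536230 counts. By the index number in their column names, 25 juvenile libraries form a late block and the others an early one. Of the Hot juvenile libraries 4 are in the early block, while 2 of the Ambient ones, both D1, are in the late block, so juvenile heat and the block can hardly be told apart and values from the early block are given beside the juvenile heat results. Identifier neighbours among the members, such as Amillepora23389-RA and Amillepora23390-RA or Amillepora07196-RA and Amillepora07197-RA, may be near-identical copies that share reads, so a value of 1 of them is uncertain to that extent.

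The members' larval mean level ran from 10.1 to 2543 CPM with a median of 42.8. From Pre to Ambient their levels changed by a median of -0.97 on the log2 scale (range -3.25 to -0.57), and from Ambient to Hot by a median of 0.98 (range 0.56 to 5.91). The 2 medians were similar in size, but single members differed in which step was the larger. Averaged over crosses, Hot minus Pre ran from -2.23 to 5.02 among them. At the edge of the list the smaller step was 0.57 and 0.56 for the last members, Amillepora00034-RA and Amillepora11105-RA, and 0.56 for both Amillepora22182-RA and Amillepora07547-RA just outside it. Single members were lower at Ambient than at Pre in 6 to 11 of 11 crosses and higher at Hot than at Ambient in 7 to 10 of 10. In the test over crosses 87 members were called lower at Ambient than at Pre, against 7.46% of all models tested, and 90 were called higher at Hot than at Ambient, against 21.3%, counts that the rule itself brought about.

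**Figure D1:**
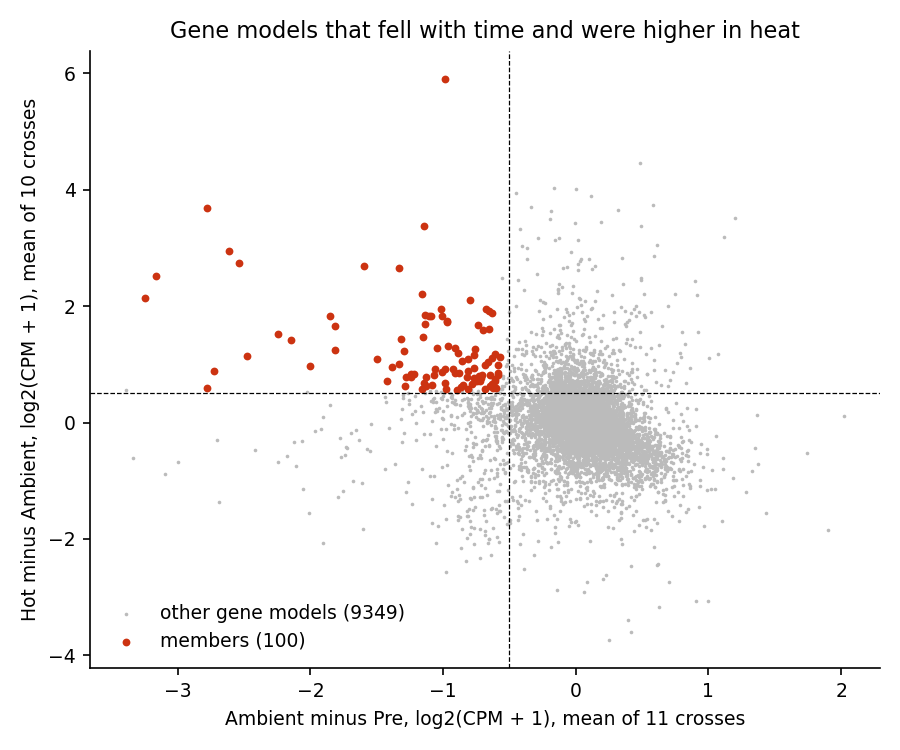
Change of each gene model with time (horizontal, Ambient minus Pre) and with heat (vertical, Hot minus Ambient), both as differences of log2(CPM + 1) averaged over larval crosses, for the 9449 models with a mean of at least 10 CPM. The 100 members (red) lie beyond both dashed lines at 0.5, in the corner of a fall with time and a higher level in heat.

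The label of the list was checked in crosses that had no part in the choice. When the rule was applied without a cross, 89 to 95 of the 100 models it chose were members. Shares of all models in this check are over those with a mean of at least 10 CPM without that cross. Of the models chosen without BKxBK, 64 were lower at Ambient than at Pre in BKxBK, near the 58.2% of all models. In the same cross 98 were higher at Hot than at Ambient, against 53.6%. Of those chosen without SBxBK, 96 were both lower at Ambient than at Pre and higher at Hot than at Ambient in SBxBK. That was the highest number among the crosses, against 34.6% of all models. Of those chosen without CUxBK, 39 showed both steps in CUxBK, the lowest number, against 23.8% of all models. CUxBK larvae thus showed the pattern least. There 57 of 100 were higher at Hot than at Ambient, near the 52.9% of all models, and 73 were lower at Ambient than at Pre, against 44.4%. In the 10 crosses with Hot libraries the number that showed both steps was above the share among all models.

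The level of the members as a group was followed through every larval library as the mean of log2(CPM + 1) over the 100 models. Over the 10 crosses with all 3 samples it ran from 4.77 to 6.30 at Pre with a median of 5.44, at Ambient from 4.01 to 5.82 with a median of 4.37, and at Hot from 5.54 to 6.17 with a median of 5.75. The Hot range lay inside the Pre range, and 2 crosses at Ambient, CUxBK and LSxCU, reached into it. The SD over these crosses was 0.57 at Pre, 0.57 at Ambient and 0.19 at Hot, where the median SD over the 3 libraries of a cross was 0.089, 0.081 and 0.12. Heated larvae of different crosses were therefore closer to each other in this mean than the same crosses were at Pre or Ambient. At Ambient CUxBK (5.82) and LSxCU (5.13) stood apart, while the other crosses lay between 4.01 and 4.51, so the Ambient SD leans on these 2. The mean over all 9449 models varied less, with SDs of 0.073, 0.019 and 0.030. Taken model by model, the spread over crosses was smaller at Hot than at Pre in 74 members, against 74.2% of all models, so the narrower spread of single genes is shared with the whole table. The members' summed share of all counts was 1.01% to 2.10% at Pre, 0.367% to 1.35% at Ambient and 1.05% to 1.73% at Hot.

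Crosses differed in where the members started and in how far they fell. In CUxSB larvae the mean level was 4.77 at Pre, 4.19 at Ambient and 5.82 at Hot. In CUxCU it was 4.94, 4.42 and 5.80, in BKxBK 4.99, 4.34 and 5.81, and in LSxLS 5.00, 4.08 and 5.69. These 4 crosses began low and at Hot lay above their start. At the other end, DRxDR had 6.22 at Pre, 4.02 at Ambient and 5.69 at Hot, and SBxBK had 6.08, 4.40 and 5.69. Both began high, had Ambient levels like those of most other crosses, and at Hot lay below their start. At Hot DRxSB (5.73, 4.51 and 5.56) and SBxSB (5.50, 4.01 and 5.54) lay close to their Pre level. CUxBK was high throughout, at 6.30, 5.82 and 6.17, and held the highest Ambient level of 72 members, against 22.6% of all models. LSxCU had 5.37, 5.13 and 5.95, and LSxSB had 6.36 and 4.05 with no heated sample. Each Pre level enters its own comparison with Hot, so whether the start goes with Hot minus Pre was not tested.

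**Figure D2:**
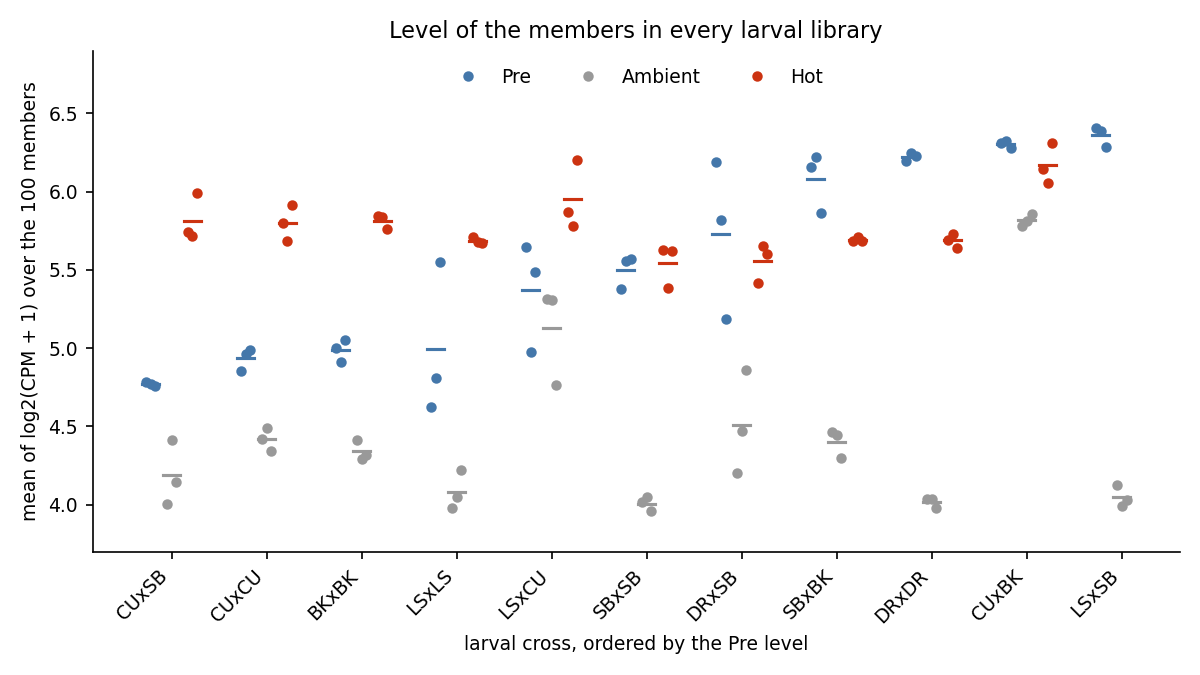
Mean of log2(CPM + 1) over the 100 members in every larval library (points, 3 per cross and treatment, bars their mean), by cross in the order of the Pre level and coloured by treatment. Pre levels rise from 4.77 to 6.36 along the axis by this order, while Hot levels stay between 5.54 and 6.17. Hot lies above Pre on the left and below it on the right, but the order comes from the same Pre libraries, so this is not a separate result.

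Some of these means hid libraries of 1 group that stood apart. The 3 Pre libraries of DRxSB lay at 5.19, 5.82 and 6.19, those of LSxLS at 4.63, 4.81 and 5.55, and those of LSxCU at 4.98, 5.48 and 5.65, the lowest of which is the shallow library. In the other crosses the Pre libraries differed by less than in these 3. The highest of the LSxLS Pre libraries was replicate 3 and the lowest of the DRxSB ones replicate 3.

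Whether Hot held the Pre level was asked first over all crosses together. Of the 100 members 18 were called higher at Hot than at Pre and 8 lower, where 19.4% of the 14413 models tested were called higher and 20.2% lower (edgeR quasi-likelihood test, Benjamini-Hochberg false discovery rate 0.05, each cross and treatment summed to 1 profile). The members' share called higher was close to that of the whole table and their share called lower was below it. Their median fitted log2 fold change was 0.0063, against -0.0023 over all models. The rule set the sign of both steps but not which was the larger, and it used the same libraries, so these counts describe the list. Averaged over crosses on the log2(CPM + 1) scale, 64 members were above their Pre level at Hot and the median difference was 0.13, against 54.7% and 0.039 for all 9449 models. A difference of at least 0.5 upward was seen in 29 members and of at least 0.5 downward in 8, and the other 63 were within 0.5 of their Pre level, against 11.8% and 11.5% of all models beyond these limits.

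A list chosen the same way for the fall with time but for no change in heat, the 100 models that fell most among those within 0.2 at Hot, had a median Hot minus Pre of -0.61 and 0 models above Pre. The mirror list, the 100 models that rose with time and were lower in heat, had a median of -0.26, with 12 above Pre. Both values follow in part from the rules that chose those lists.

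The calls over all crosses together depended on single crosses. Without CUxCU 11 members were called higher, and without each of the others 12 to 21. Without LSxLS 17 were called lower, without DRxSB or SBxSB 4, and without CUxCU 5.

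Within crosses the answer ranged from clearly above to clearly below. The median Hot minus Pre over the 100 members is given with the SD over the 9 pairings of a Hot with a Pre library. The pairings reuse the same libraries and compare single libraries, whereas the median uses group means. The SD therefore shows the spread of libraries and is not an error of the median. Members were called by edgeR's quasi-likelihood test within the cross at a false discovery rate of 0.05. In CUxSB the median was 0.86 (SD 0.13) and 87 members were above Pre, of which 47 were called higher against 14.5% of all models, while 5 were called lower against 15.9%. In BKxBK it was 0.66 (SD 0.12), with 44 called higher against 18.9% and 11 lower against 19.6%. In CUxCU it was 0.66 (SD 0.11), with 37 higher against 14.5% and 4 lower against 16.1%. Without replicate 3, 7 were called lower in BKxBK. In each of these 3 crosses fewer than 50 members were called higher, and many more than were called lower.

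LSxLS and LSxCU also had positive medians but with more spread. In LSxLS the median was 0.53 (SD 0.29), with 39 members called higher against 11.4% of all models and 6 lower against 11.6%. In LSxCU it was 0.48 (SD 0.31), with 35 higher against 11.1% and 26 lower against 12.5%. The LSxCU members therefore split, with both shares above those of models at large. Without replicate 3 of both groups the LSxLS median was 0.88 and the LSxCU median 0.16, and without the shallow library alone the LSxCU median was 0.54. The calls without replicate 3 were 18 higher and 15 lower in LSxCU, and in LSxLS 45 higher and 0 lower by edgeR, with 2 lower at an unadjusted p under 0.05.

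SBxSB lay near 0, with a median of 0.054 (SD 0.21), 30 members called higher against 17.0% of all models and 28 lower against 16.0%. Its median was -0.11 without replicate 1 and 0.22 without replicate 2, so its sign depended on which libraries were used, while single members were called both ways. Without replicate 2, 17 were called lower.

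In the other 4 crosses more members were called lower than higher. The median in DRxDR was -0.51 (SD 0.13), with 17 called higher against 15.7% of all models and 47 lower against 16.4%. In SBxBK it was -0.22 (SD 0.14), with 9 higher against 12.3% and 22 lower against 12.5%. In CUxBK it was -0.17 (SD 0.085), with 14 higher against 14.9% and 31 lower against 15.0%, and without replicate 1 the median was -0.11. DRxDR was the only one of the 10 crosses with a median below -0.5. In DRxSB the median was -0.20 (SD 0.36), smaller than the spread over library pairings, with 8 higher against 10.5% and 27 lower against 11.7%. Without replicate 1 of both groups the DRxSB median was 0.0049, with 13 called higher and 15 lower. The other calls that moved by more than 1.5 times were 10 higher in DRxDR without replicate 2, and 4 higher in SBxBK without replicate 3 and 14 lower without replicate 2.

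**Figure D3:**
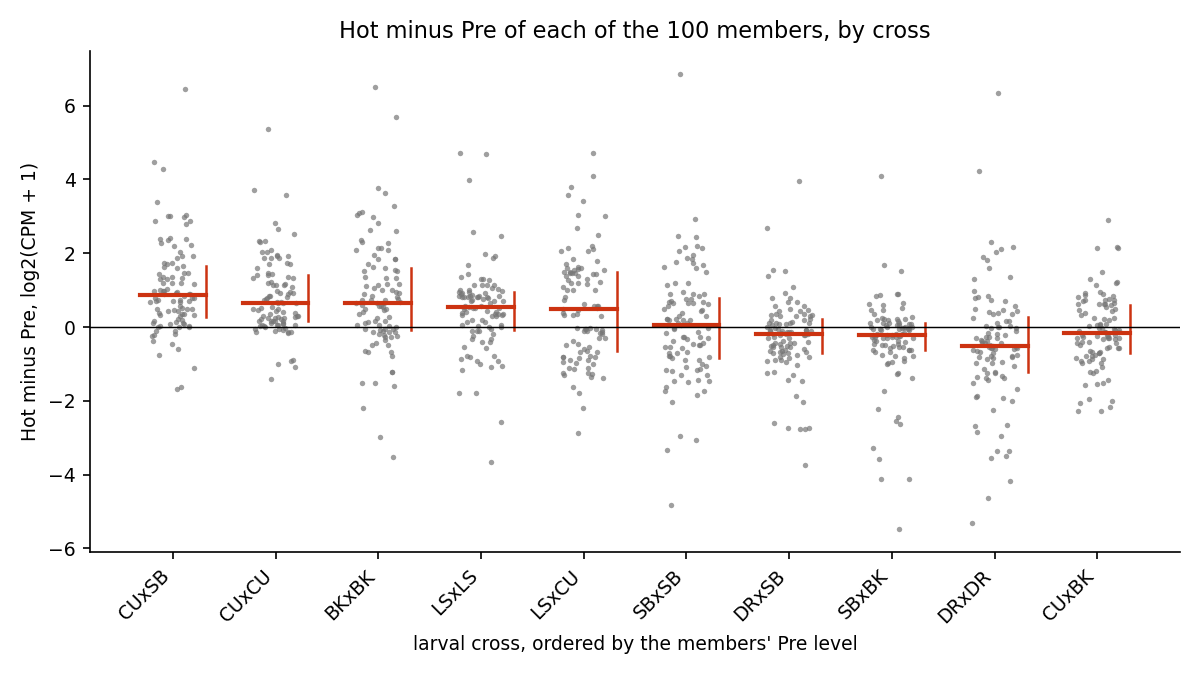
Hot minus Pre of each member, as a difference of log2(CPM + 1), in each of the 10 larval crosses with Hot libraries. Crosses are ordered by the members' Pre level, which shares its libraries with the values shown. Grey points are the 100 members, horizontal red bars their median and vertical red bars the lower to upper quartile, and the medians run from 0.86 in CUxSB to -0.51 in DRxDR.

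Scaling the libraries by the trimmed mean of M-values in place of their totals moved the median Hot minus Pre of all models by more than 0.1 in BKxBK (0.14) and CUxBK (-0.11) alone. On that scale the members' median was 0.80 in BKxBK and -0.28 in CUxBK, so no cross changed sign. The Pre libraries enter both the Pre level and Hot minus Pre, so no relation between these was computed.

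A test of whether crosses differ in Hot minus Pre called 95 of the 100 members, against 48.5% of the 11417 models tested (edgeR quasi-likelihood F-test of the interaction, false discovery rate 0.05). The difference between crosses in Hot against Ambient was called for 73 members, against 30.4%. Members thus differed between crosses more often than models at large, and so did the mirror list (97 and 77) and the heat-neutral list (85 and 58), so this was not particular to genes that heat raises. Averaged over treatments, crosses differed in 41 members, against 27.6% of all models, and in 13 without CUxBK, then below the 17.9% of all models. Single members also went opposite ways in different crosses. In all, 70 members were called higher at Hot than at Pre in at least 1 cross and lower in at least 1 other, against 20.8% of all 9449 models, 64 of the mirror list and 17 of the heat-neutral list. Of the other members 19 were called only higher against 30.0%, 9 only lower against 31.2% and 2 in no cross against 17.9%. Hot lay above Pre in all 10 crosses for 6 members and in 0 crosses for 1, where the numbers among all 9449 models were 975 and 660. It did so in 3 to 7 crosses for 70 members, against 47.0% of all models and 70 of the mirror list. The SD of Hot minus Pre over crosses had a median of 0.89 per member, against 0.87 in the mirror list and 0.39 over all models.

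The members did not move as 1 block between crosses. Over the 10 crosses the median Pearson correlation of Hot minus Pre between pairs of members was 0.21, against 0.029 among all models and 0.63 within the mirror list, where crosses share their libraries and depth. The pairs of neighbouring identifiers among the members had correlations of 0.69 (Amillepora07196-RA with Amillepora07197-RA), 0.74 (Amillepora23389-RA with Amillepora23390-RA) and 0.98 (Amillepora24331-RA with Amillepora24332-RA). Within groups of larval libraries the deviations from the group mean had a median correlation of 0.063 between members over 96 libraries. A typical pair of members thus hardly moved together over all groups. In single groups the members' mean still differed between libraries, as at Pre in LSxLS (4.63 to 5.55) and DRxSB (5.19 to 6.19).

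Levels of single members are given over the 10 crosses with Hot libraries, which leaves out LSxSB. Amillepora13086-RA had the largest Hot against Pre difference of all members. Its level at Pre was 1.86 CPM in the lowest cross, 6.63 at the median and 35.7 in the highest, and at Hot 74.7, 246.7 and 451 CPM. Every cross at Hot lay above every cross at Pre. The fitted log2 fold change was 5.12 (SE 0.46, edgeR quasi-likelihood test with Benjamini-Hochberg adjusted p = 3.25e-09), and the model was called higher within 10 of 10 crosses. At Ambient its median was 1.79 CPM, so the fall with time in this model was small in counts beside the level in heat.

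Amillepora11367-RA, the second of the rising models, ran from 0 CPM in BKxBK to 71.02 in CUxBK at Pre, with a median of 12.9. At Hot it ran from 19.2 CPM in DRxDR to 325 in CUxBK, with a median of 58.4. The groups overlapped, since DRxDR at Hot was below several crosses at Pre. The fitted log2 fold change was 2.02 (SE 0.60, edgeR quasi-likelihood test with Benjamini-Hochberg adjusted p = 0.00937), with 8 crosses called higher and DRxDR called lower.

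Amillepora12992-RA was the steadier of the 2 leading models that lay below their Pre level at Hot. Its lowest, median and highest cross were 279.3, 784.5 and 2018 CPM at Pre, 71.2, 110.2 and 159.6 at Ambient, and 39.2, 179.6 and 566 at Hot. Heat raised it above Ambient on average, yet Hot stayed well under Pre, with a fitted log2 fold change of -2.23 (SE 0.33, edgeR quasi-likelihood test with Benjamini-Hochberg adjusted p = 7.70e-06). It was called lower in 9 of 10 crosses, and LSxLS was the exception.

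Amillepora04922-RA was the other, and its Pre level divided the crosses. It was at 1095 CPM in CUxBK, 1049 in DRxDR and 507 in SBxBK, near 211 in SBxSB and 210 in DRxSB, and down to 7.05 in BKxBK, with a median of 210.7 over the 10 crosses. At Hot the lowest, median and highest crosses were 10.4, 25.02 and 512 CPM. The fitted log2 fold change was -2.47 (SE 0.74, edgeR quasi-likelihood test with Benjamini-Hochberg adjusted p = 0.0102), with 5 crosses called lower and LSxCU called higher. In 6 of its 32 groups of cross and treatment the highest library was at least 4 times the second, most of all in LSxLS Pre and LSxCU Hot. The LSxLS Pre libraries held 8.67, 13.6 and 947 CPM, and the LSxCU Hot libraries 30.1, 16.6 and 1064 CPM. In both of these Amillepora17781-RA, another member, was high in the same library, at 98.2 CPM against 1.08 and 2.47, and at 139 against 22.6 and 13.5.

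**Figure D4:**
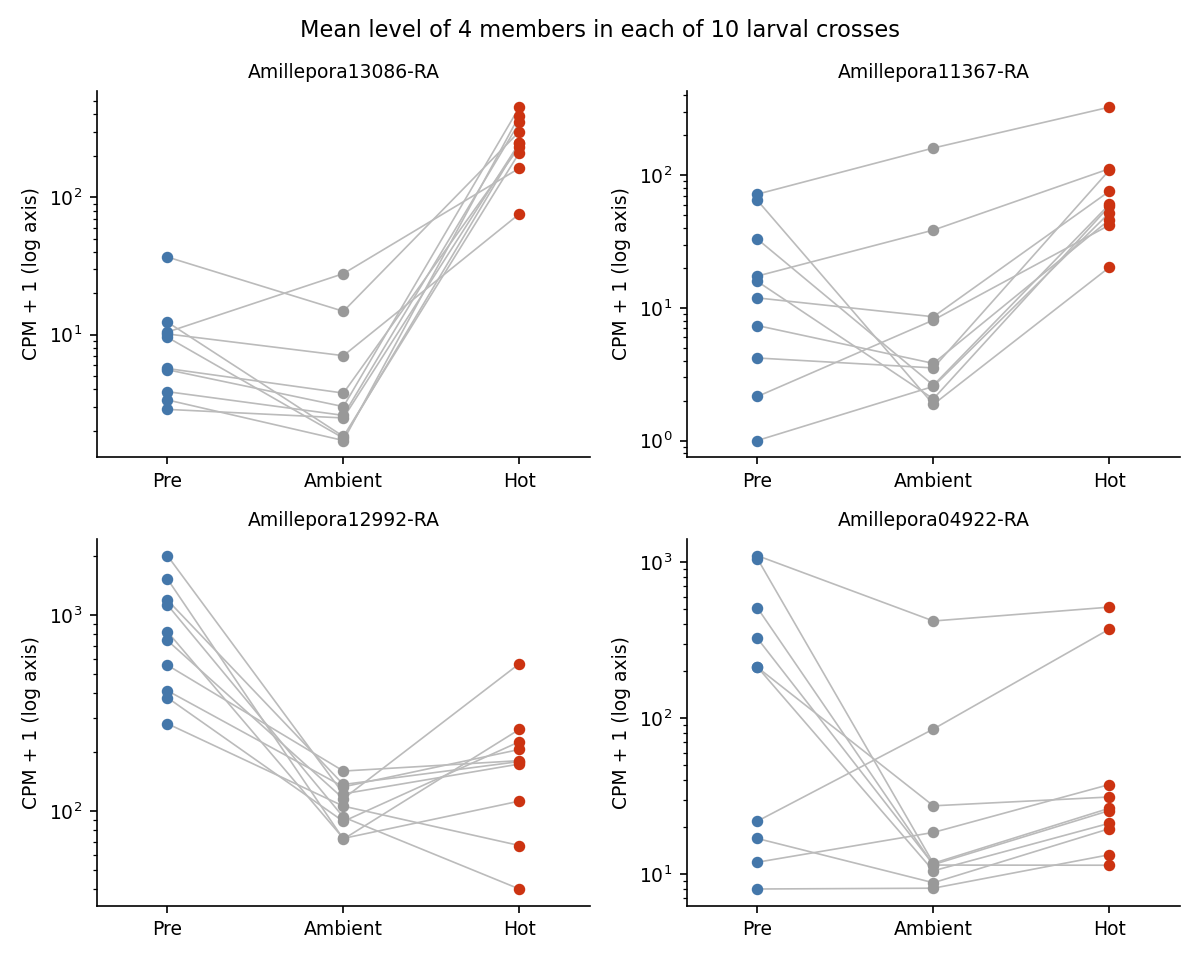
Mean CPM + 1 (log axis) of 4 members at Pre, Ambient and Hot, with 1 point per larval cross and grey lines joining the 10 crosses. In Amillepora13086-RA every Hot point lies above every Pre point, in Amillepora12992-RA most crosses remain below Pre, and in Amillepora11367-RA and Amillepora04922-RA the crosses spread widely at Pre.

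The 2 members ranked first and second by the rule show how crosses diverged. Amillepora23389-RA had 24.1 CPM in the lowest cross at Pre, 150 at the median and 219 in the highest, then 4.65, 18.8 and 70.3 at Ambient, and 75.5, 324 and 537 at Hot. In DRxDR, which held both its lowest Pre and its lowest Ambient level, it was at 470 CPM at Hot. Its difference over all crosses was not called (fitted log2 fold change 1.03, edgeR quasi-likelihood test with Benjamini-Hochberg adjusted p = 0.0576), although it was without BKxBK, CUxBK or CUxSB (adjusted p = 0.0260, 0.0400 and 0.0463), while 6 single crosses were called higher and BKxBK lower. Amillepora21110-RA ran from 5.06 to 123.03 CPM at Pre and from 2.89 to 193 at Hot, with 3 crosses called higher and 3 lower.

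All 100 members are also in the juvenile table, where the larval choice had no part. Larvae and juveniles are separate tables of separate libraries, so levels are set side by side without a test, over the 8 crosses in both. At Ambient the members' juvenile level was a median of 1.41 above their larval Ambient level on the log2(CPM + 1) scale, against -0.059 for all 9449 models. Since the rule picked low larval Ambient levels, the heat-neutral list, also picked for a fall with time, gives a closer comparison than all models. Its median was 0.33. The fitted median change from Pre to Ambient was -0.76 in that list and -1.05 in the members, so the 2 lists are not matched for the fall. Against the level before exposure the members' median was 0.57 higher in juveniles, with 55 above, against 47.8% of all models. Against heated larvae it was 0.089 higher, with 53 above, against 46.7%. Both counts were near the shares of all models. In the heat-neutral list these medians were -0.36 and 0.28. By their medians the members' juvenile levels were nearer to those of Pre and Hot larvae than to those of Ambient larvae.

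Single members differed far more than that median. The juvenile level was at least 2-fold above the larval Ambient level in 56 members, against 9.73% of all models, and at least 2-fold below it in 8, against 15.0%. It was above all 3 larval levels in 50 members and below all 3 in 24, where 3453 and 4018 of all 9449 models were. The members' differences from larval Ambient ran from -7.86 to 7.08. Amillepora11367-RA, at a median of 58.4 CPM in heated larvae, had medians of 198 to 455 CPM in the 4 Ambient juvenile groups. Amillepora12992-RA, at 784.5 CPM in Pre larvae, had medians of 0 to 2.90 CPM there, and Amillepora21110-RA had a median of 0 in all 7 juvenile groups, with no count in 27 of 29 C1, 30 of 32 D1, 28 of 28 SED and 28 of 30 SS libraries at Ambient. The list therefore joins models that stayed in use after settlement with others that were near the limit of detection in juveniles.

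Between juvenile crosses the members' mean level hardly varied at Ambient, from 5.52 in DRxCU to 5.63 in LSxCU, with SDs over the libraries of a cross of 0.14 to 0.27. Of the 83 members that passed the low-count filter, 17 differed between the 10 crosses, against 26.8% of all models (edgeR quasi-likelihood F-test, false discovery rate 0.05). Without replicate 2 the number was 2, and without replicate 1 or 3 it was 9 and 8. In Pre larvae the SD of this mean over crosses was 0.57.

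Symbiont treatments at Ambient separated more members than crosses did. The mean level of the members was 5.48 ± 0.14 in C1 (SD, n = 29), 5.51 ± 0.15 in D1 (n = 32), 5.58 ± 0.19 in SED (n = 28) and 5.78 ± 0.12 in SS (n = 30). SS thus lay highest, by more than the SD of its own libraries. A difference among the 4 treatments was called for 52 of 83 members, against 30.5% of all models (edgeR quasi-likelihood F-test), and for 30 without replicate 2. Set against C1, SS had 23 members higher, where 4.67% of all models were, and 2 lower, against 4.26%, with 11 higher when replicate 2 was left out. D1 had 9 higher, against 2.97%, and 2 lower, against 3.35%, but 18, 3 or 2 higher without replicate 1, 2 or 3 and 14 with the rank of the index number within its group as a covariate, so its count was unstable. SED had 21 higher, against 13.7%, and 22 lower, against 16.2%, but 5 lower when the index number was a covariate and 14 lower without replicate 2. The 3 contrasts share the C1 libraries. The heat-neutral list had 14 higher in SS and 54 with a difference among treatments, so neither is particular to the members.

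The members with the largest SED contrasts were Amillepora07197-RA and Amillepora23389-RA upward and Amillepora13086-RA and Amillepora17781-RA downward. In Amillepora07197-RA the lowest, median and highest C1 libraries were 2.92, 24.7 and 53.5 CPM and the SED ones 39.5, 590 and 1687, so the groups overlapped only at their ends (log2 fold change 4.70, SE 0.36, edgeR quasi-likelihood test with Benjamini-Hochberg adjusted p = 5.17e-22). Its level within SED at Ambient went with the index number, since the library with the lowest index number of a cross was the highest in 10 of 10 crosses, and the same held for Amillepora23389-RA in C1. With the rank of the index number within its group as a covariate, the SED contrast of Amillepora07197-RA was 4.18 (adjusted p = 2.22e-25, edgeR). Amillepora17781-RA had a mean of 38.0 ± 13.7 CPM in C1 (SD, n = 29), with a median of 34.2, and of 8.98 ± 6.11 in SED (SD, n = 28), with a median of 9.02 and a lowest library of 0. It fell by 1.95 on the log2 scale (SE 0.22, edgeR quasi-likelihood test with Benjamini-Hochberg adjusted p = 8.80e-13) and was higher in SED in 0 of 10 crosses. Amillepora13086-RA, the strongest of the larval heat genes here, had 7.62, 54.9 and 366 CPM in C1 and 0, 5.17 and 78.0 in SED (log2 fold change -2.48, SE 0.47, edgeR quasi-likelihood test with Benjamini-Hochberg adjusted p = 1.14e-05, and 0.0928 with the index number as a covariate).

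Heat in juveniles was called in the members about as often as in all models. Of 88 members that passed the low-count filter, 19 were higher at Hot, against 17.0% of all models, and 14 were lower, against 17.2% (edgeR quasi-likelihood test over 14 combinations of cross and symbiont treatment with both temperatures, false discovery rate 0.05). The median fitted log2 fold change was 0.020, against -0.024 over all models, and 46 of the 88 were above 0, against 47.1% of all models. With a term for the index block 1 member was called higher and 0 lower, and within the early block alone, with 4 Hot and 12 Ambient libraries, 2 were called higher and 1 lower. With the block term 8 members had an unadjusted p under 0.05, 5 of them higher and 3 lower. Without replicate 1, 12 were called higher, and without replicate 2, 5 were called lower. The share of all models is not given for these settings, so they do not show whether the members or the whole table lost calls.

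Among the members that were higher in heated juveniles, Amillepora07761-RA had a lowest, median and highest library of 0, 19.6 and 206 CPM at Ambient and 12.0, 57.4 and 235 CPM at Hot. The groups overlapped, but the Hot mean was higher in 12 of 14 combinations (log2 fold change 1.40, SE 0.25, edgeR quasi-likelihood test with Benjamini-Hochberg adjusted p = 1.40e-05). The adjusted p was 0.485 with the block as a term, and in the early block alone the log2 fold change was 1.65 (adjusted p = 0.0242, edgeR). Amillepora24153-RA followed with 1.06 (SE 0.32, edgeR quasi-likelihood test with Benjamini-Hochberg adjusted p = 0.00668) and was higher in 9 of 14 combinations, with adjusted p of 0.363 without replicate 1 and 0.459 with the block term. Its log2 fold change was 1.33 in the early block alone (adjusted p = 0.398, edgeR). In SS alone its fitted change was -0.55. Among those that were lower, Amillepora13082-RA had medians of 42.1 CPM at Ambient and 23.5 at Hot and was higher at Hot in 2 of 14 combinations (log2 fold change -0.96, SE 0.25, edgeR quasi-likelihood test with Benjamini-Hochberg adjusted p = 0.00208). Its adjusted p was 0.0557 without replicate 2 and 0.999 with the block term, where the fitted log2 fold change was -0.0051 (edgeR). In the early block alone that change was 0.036 (adjusted p = 0.983, edgeR). The other, Amillepora07197-RA, was called at -1.56 (SE 0.57, edgeR quasi-likelihood test with Benjamini-Hochberg adjusted p = 0.0280), which was 0.0538 without replicate 1 and 0.301 without replicate 2. In the early block alone its log2 fold change was 1.45 (adjusted p = 0.431, edgeR), and it changed in opposite directions under different symbiont treatments.

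Heat was also examined within each symbiont treatment, a comparison added after the data had been seen. The heated libraries come from 4 crosses in D1, 7 in SED and 3 in SS, of which only DRxSB and SBxSB are common to all 3, so symbiont treatment and cross are partly mixed here. In D1 juveniles the median fitted log2 fold change over 90 members was 0.30, against -0.030 over all models, with 11 members called higher against 2.26% and 2 lower against 2.51%. In SS juveniles the median was -0.17, against -0.015, with 5 higher against 2.80% and 15 lower against 2.92%. In SED juveniles 12 were called higher against 11.6% and 12 lower against 10.8%, and 45 of the 90 had a fitted change above 0, against 47.2% of all models. Most members were called in none of these, and among those called more were higher in D1 and more were lower in SS. With a term for the index block the medians were 0.18 in D1, -0.019 in SED and -0.11 in SS. Under that term edgeR called 0 members in D1, as it did 0.00% of all models in either direction, with 18 members higher and 2 lower at an unadjusted p under 0.05. It called 1 higher against 0.881% and 3 lower against 0.471% in SED, and 1 higher against 0.164% and 5 lower against 0.553% in SS. In the early block alone the medians were 0.23 in D1, 0.18 in SED and -0.11 in SS. In that block edgeR called 1 member higher in D1, Amillepora07761-RA, against 0.145% of all models. There it called 0 in SED and 0 in SS, where 9 and 14 had an unadjusted p under 0.05. The mean level of the members was 5.99 ± 0.20 in heated D1 (SD, n = 6), 5.67 ± 0.21 in heated SED (n = 15) and 5.58 ± 0.20 in heated SS (n = 6). SS, highest at Ambient, was thus lowest at Hot, but over unlike sets of libraries. The Ambient means cover all 10 crosses and mostly the early block, the Hot means only the heated crosses and mostly the late block.

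A test of the difference itself, temperature by symbiont treatment, called 11 of the 90 members, against 1.34% of the 9764 models tested (edgeR quasi-likelihood F-test, false discovery rate 0.05). With a term for the index block 12 members were called, including all 11. Without replicate 2, 5 were called, and without the other replicate numbers up to 12. The share of all models is not given for the block term or the left-out replicates. Within DRxSB and SBxSB alone 3 of 88 were called, against 0.347% of all models (Amillepora09083-RA, Amillepora22435-RA and Amillepora24153-RA, of which the first and second are among the 11). In these crosses 10 of the 11 had a fitted change upward in D1 and downward in SS. With the early block alone edgeR called 0 of 91, against 0.0415% of all models, with 21 members at an unadjusted p under 0.05. The mirror list had 0 of 67 called by edgeR, with 11 at an unadjusted p under 0.05 and 0 called by DESeq2, and the heat-neutral list had 2 of 88 called. In 10 of the 11 the fitted change was upward in D1 and downward in SED and SS. Over all 90 members 33 had an upward change in D1 with a downward one in SS, against 14.9% of all models. Amillepora04505-RA, singled out after its values were seen, was the exception, with -0.26 in D1, 0.45 in SED and 0.97 in SS, and with -0.52, 0.59 and 1.38 in the early block alone.

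Amillepora07197-RA led this comparison. In D1 its lowest, median and highest libraries were 0, 42.2 and 672 CPM at Ambient and 310, 539 and 890 at Hot. In SED they were 39.5, 590 and 1687 at Ambient and 7.25, 24.1 and 322 at Hot, and in SS 193, 346 and 1110 at Ambient and 4.83, 16.3 and 22.5 at Hot. The SS groups did not overlap, whereas the D1 and SED groups did. These Ambient values cover all 10 crosses and the Hot ones the heated crosses alone. Among heated SED libraries the one with the lowest index number of a cross was the highest in 6 of 7 crosses. The log2 fold change at Hot was 2.76 in D1 (SE 0.68, adjusted p = 0.0121), -3.08 in SED (SE 0.52, adjusted p = 9.75e-06) and -4.84 in SS (SE 0.97, adjusted p = 6.67e-04), and the difference had an adjusted p of 4.91e-07 (edgeR quasi-likelihood tests with Benjamini-Hochberg adjustment). With the block as a term the values were 2.55 in D1 (adjusted p = 0.206), -3.42 in SED (adjusted p = 0.00783) and -5.16 in SS (adjusted p = 0.00519), and 6.19e-07 for the difference (edgeR). Within DRxSB and SBxSB alone the changes were 2.05 in D1, -2.60 in SED and -4.73 in SS, and the difference had an adjusted p of 0.0547 (edgeR). They were 3.28, -0.87 and -3.99 in the early block alone, with an adjusted p of 0.329 for the difference (edgeR).

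Values of Amillepora07197-RA within 1 index block came from the 4 heated libraries of the early block and from 2 pairs of D1 libraries of the late block. In the early block the SBxSB SS library had 22.5 CPM, against 298 to 409 in its Ambient libraries. The SBxSB D1 library had 310 CPM, against 14.1 to 141, and the LSxLS D1 library 693 CPM, against 8.60 to 69.2. These 3 moved as the fit did. The SBxSB SED library had 322 CPM, inside its Ambient range of 39.5 to 1174, while the late-block library of that combination had 7.25 CPM. In the late block the CUxDR D1 library had 220 CPM at Ambient and 890 at Hot, and the DRxSB D1 library 672 at Ambient and 356 at Hot. The DRxSB pair went against the fitted direction. These late-block Ambient libraries were the highest of the 32 Ambient D1 libraries, the next being at 207 CPM. At Ambient the late block thus also went with a high D1 level, and the overlap of the D1 groups came from the 672 CPM library.

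Amillepora23389-RA, first by the larval rule, moved like Amillepora07197-RA in D1 and SS. Its medians were 299 CPM at Ambient and 1131 at Hot in D1, 929 and 467 in SED and 556 and 50.4 in SS, beside 26.4 in C1 at Ambient. In this paragraph Ambient medians cover all 10 crosses and Hot medians the heated crosses alone. Heated SED libraries ran from 44.9 to 1639 CPM. The library with the lowest index number of a cross was the highest in 7 of 7 heated SED crosses and 3 of 3 heated SS crosses. The SS groups did not overlap, with 341 CPM as the lowest Ambient and 191.7 as the highest Hot library. The log2 fold change at Hot was 1.63 in D1 (adjusted p = 0.0421), -0.47 in SED (adjusted p = 0.364) and -3.14 in SS (adjusted p = 9.28e-04), and the difference had an adjusted p of 2.53e-04 (edgeR quasi-likelihood tests with Benjamini-Hochberg adjustment). With the block as a term the D1 change was no longer called (adjusted p = 0.256), while the SS change was (adjusted p = 0.0131, edgeR). In the early block alone the changes were 1.67 in D1, 0.87 in SED and -1.48 in SS, with an adjusted p of 0.960 for the difference (edgeR), and within DRxSB and SBxSB alone that p was 0.244. Amillepora04922-RA, the larval model that was low at Hot against Pre, changed by -1.37 in SS (adjusted p = 9.28e-04, edgeR), with medians of 841 CPM at Ambient and 285.4 at Hot. With the block as a term this was -1.40 (adjusted p = 0.0250, edgeR), and it was -0.69 in the early block alone (adjusted p = 0.895, edgeR). Its difference between treatments had an adjusted p of 0.00927, of 0.0112 with the block term, of 1 in the early block and of 0.434 within DRxSB and SBxSB alone (edgeR).

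**Figure D5:**
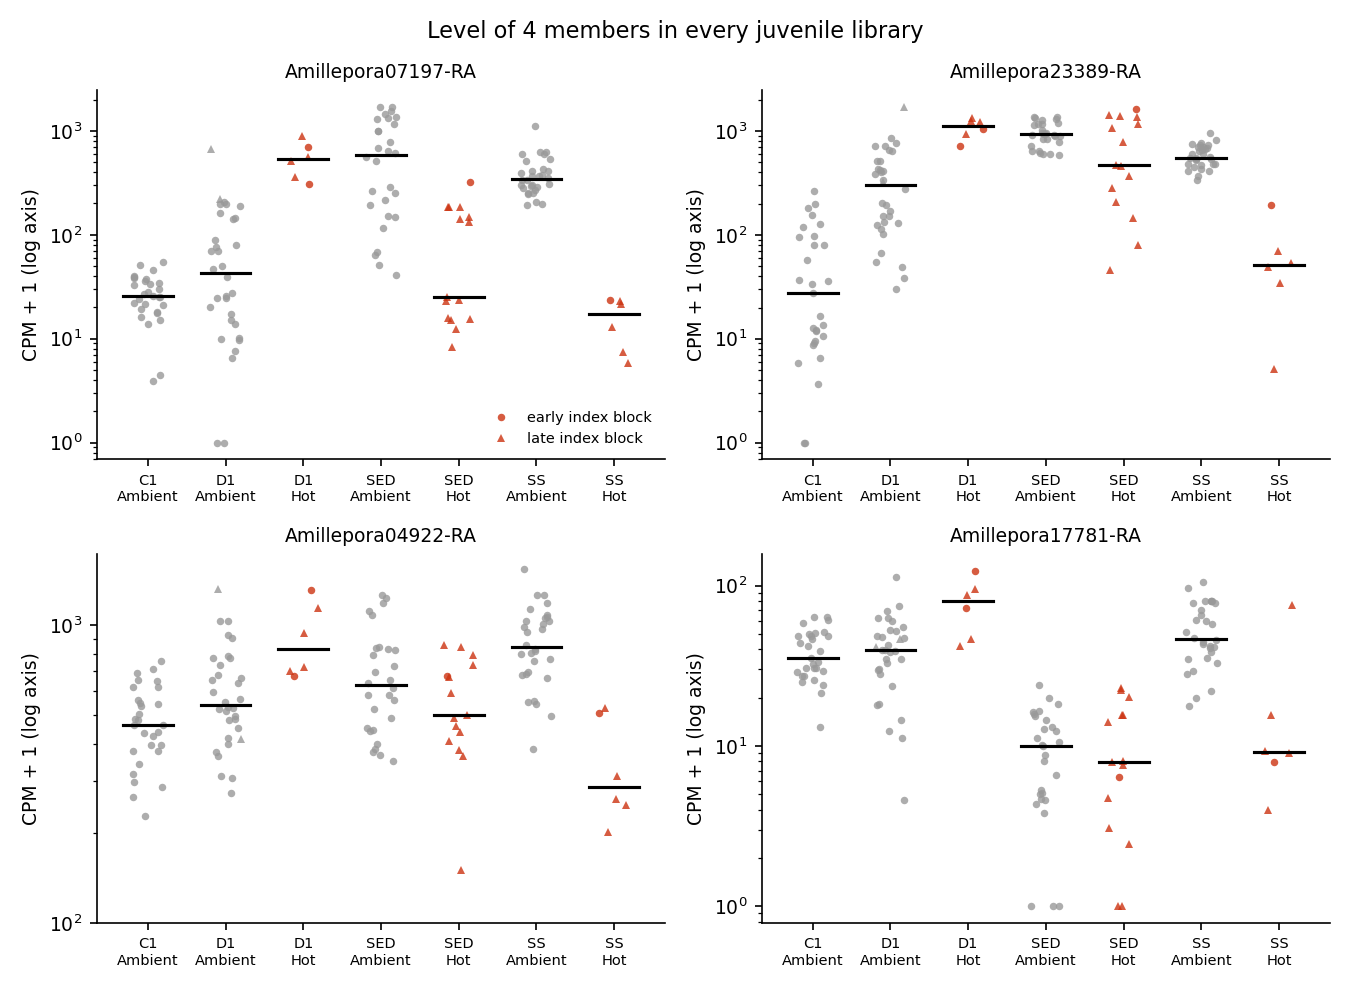
CPM + 1 (log axis) of 4 members in every juvenile library, by symbiont treatment and temperature, with circles for the early and triangles for the late index block and a black bar at the median. In Amillepora07197-RA the median is 42.2 CPM at Ambient and 539 at Hot in D1, and 346 and 16.3 in SS. Ambient points come from all 10 crosses and Hot points from the heated crosses alone, and most Hot points are triangles.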

How the data were processed

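Tables of whole-number read counts, with a gene model per line and a library per column, were deposited for larvae and for juveniles. Per the submitters' processing notes Bowtie2 2.2.9 was used, and neither the counting step nor the reference is given in the sources used here. Columns were assigned to the 242 samples by title, and to groups by the labels' other fields. No library was left out, and depth was 79712 to 1102351 counts each in larvae and 158481 to 962906 in juveniles, so a model at 10 CPM in a juvenile library rests on few counts.

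The members and the comparison lists were chosen with earlier results of these data known. Levels are CPM on column totals, and log2 values add 1 CPM. Tests ran on all gene models past edgeR's filterByExpr, with TMM size factors, glmQLFit and glmQLFTest (edgeR 4.0.16, R 4.3.3) and Benjamini-Hochberg adjustment over the whole table at a false discovery rate of 0.05. Larval Pre, Ambient and Hot were compared on 32 profiles (each the sum of the 3 libraries of 1 cross and treatment) with cross as a term, and single crosses and differences between crosses on libraries. Juvenile symbiont treatments and crosses were tested on the Ambient libraries with the other factor as a term, and juvenile heat on 69 libraries with cross and symbiont treatment joined into 1 factor. The test of a difference in heat between symbiont treatments and its alternatives, the rank of the index number within a group as a covariate, and the library left out for its depth were added after the data had been seen. Replicate libraries of a group differed by more than sampling noise (chi-square divided by its degrees of freedom, 1.05 to 4.24 over 96 larval pairs and 2.18 to 9.46 over 134 juvenile pairs), so none was taken as a repeat.

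Models were named by a rule: the first and second member by the smaller step, and for Hot against Pre, juvenile heat and SED against C1 the 2 called members with the largest and the 2 with the lowest fitted fold change, where juvenile models needed a mean log2 CPM of 3 or more. A model named beyond it is said to be so. Comparison lists of 100 were made by like rules, 1 of models that rose with time and were lower in heat and 1 of models that fell with time and changed by less than 0.2 with heat. The alternatives were DESeq2 1.42.0 and its size factors, no low-count filter, a false discovery rate of 0.01, a replicate block, libraries in place of summed profiles, other pseudocounts and CPM minimums, the index number or block as a term, single symbiont treatments, and leaving out a replicate or a cross. The scripts were tested on simulated data.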

Additional observations from a re-analysis of the deposited data

Results flagged for a closer look

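Of 19 groups of 4 to 10 crosses or libraries that were examined, 2 held a value far from the others, where chance gives about 1 in 20 groups such a value. In Amillepora23389-RA the Hot minus Pre difference of DRxDR, 4.23 on the log2(CPM + 1) scale, stood apart from the other 9 crosses. Among the Ambient D1 juveniles of CUxDR, replicate 3 had a mean member level of 5.23 on the log2(CPM + 1) scale, apart from the other libraries of its group. The results that differed between groups by a test of the difference itself were the Hot against Pre differences between larval crosses, called for 95 members, the heat differences between larval crosses, called for 73, and the heat differences between juvenile symbiont treatments, called for 11.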

How the results depend on the processing

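The SBxSB and DRxSB medians, and the juvenile heat changes of Amillepora07197-RA, Amillepora13082-RA and Amillepora24153-RA, changed sign under settings named in the report. For Hot against Pre, a false discovery rate of 0.01 left 9 members higher and 2 lower, and leaving out a cross or a replicate number gave 11 to 21 higher and 4 to 17 lower. With libraries in place of summed profiles 27 were lower without and 24 with a replicate block. Differences among larval crosses numbered 23 at the stricter rate, 96 with libraries as replicates with or without the block, and 13 to 49 with a cross or replicate left out. Replicate numbers are not shown by the labels to pair libraries, and in larvae the deviations of same-numbered libraries had a median correlation of -0.00051. Juvenile numbers follow the order of accessions and were given no block. Juvenile libraries of the same rank by index number within their group had a median correlation of 0.065 in C1 and 0.042 in SED at Ambient, against -0.035 and -0.022 for other ranks. With that rank as a covariate D1 against C1 higher was called for 14 members and heat in D1 lower for 1 in place of 2, and no other juvenile count of called members moved by more than 1.5 times. In juvenile heat, members higher and lower numbered 1 and 0 with the index block as a term, 2 and 1 in the early block and 2 and 0 in D1 alone (where 37 of 84 had an unadjusted p under 0.05), while SED alone gave 8 higher, SS alone 5 higher and the stricter rate 8 lower. Without a replicate number 12 to 18 were higher and 5 to 13 lower. With the index number as a covariate the symbiont difference was called for 34 members, SED against C1 lower for 5, D1 against C1 lower for 0 (5 at an unadjusted p under 0.05) and juvenile crosses for 9. D1 lower was 0 at the stricter rate and 1 by DESeq2, and juvenile crosses 5 at the stricter rate. Without a replicate number the ranges were 30 to 52 for the symbiont difference, 14 to 17 for SED lower, 11 to 27 for SS higher, 2 to 18 for D1 higher, 0 to 6 for D1 lower, 2 to 9 for juvenile crosses and 5 to 12 for the heat difference between symbiont treatments, which was 35 with no low-count filter, 3 within the crosses heated in all 3 treatments and 0 in the early block. The median Hot minus Pre was 0.80 in BKxBK and -0.28 in CUxBK with TMM library sizes, and 0.51 in BKxBK and 0.54 in CUxCU with a pseudocount of 5. Without a replicate number it ran from 0.56 to 0.80 in BKxBK, -0.51 to -0.34 in DRxDR, 0.16 to 0.59 in LSxCU and 0.49 to 0.88 in LSxLS. With a minimum of 30 CPM the rule kept 63 of the members. Counts under other settings, here and above, stand without the share of all models unless 1 is printed. They do not show whether the members or the whole table shifted. The causes of these shifts were not tested. Few heated D1 and SS libraries, unnamed gene models and the unknown origin of replicate libraries limit what the counts can show.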
